A study of Mus musculus with 4 samples.

Results

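Genes of the neutrophil granules and of the abundant neutrophil cytosolic proteins were followed in fetal livers of mouse embryos with and without the serine/threonine kinase Stk40. The 10 genes, each read by 1 probe set of the 45101 on the array, were Mpo, Camp, Ngp, Ltf, Lcn2, Fcnb, Cd177, Chi3l3, S100a8 and S100a9. The first comparison group was WT and the second Stk40 KO, both C57BL/6J, taken at E14.5 from matings of Stk40 heterozygous mice, with no treatment named for either. The Stk40 KO allele came from heterozygous parents and no cell type to which it is limited is named, total RNA was taken from fetal livers with no sort named, and each array carried RNA of 6 pooled livers, with 2 arrays per genotype. Of the 10 genes, 7 were chosen by their measured intensities, because the deposited table of 2-fold changes between Stk40 KO and WT names them, and S100a8, S100a9 and Mpo were taken by their probe set IDs with earlier results of these arrays known. Their difference between the genotypes is therefore described here without a test.

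Neutrophils arise in the fetal liver and bone marrow from myeloid progenitors and fill their granules in sequence as they mature. Primary (azurophil) granules form at the promyelocyte stage and hold myeloperoxidase and serine proteases, whereas specific granules form later, in myelocytes and metamyelocytes, and hold lactoferrin, cathelicidin and lipocalin 2. C/EBP transcription factors, C/EBPε above all, are known to drive the genes of the specific granules, and S100A8 and S100A9 accumulate in the cytosol of maturing neutrophils.

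The promoters of these genes were searched for letters that C/EBP proteins bind, given their known role in specific granule genes. All 10 genes matched an entry in RefSeq's promoter table (build GRCm38.p6), Chi3l3 under its current symbol Chil3. The motif TTNNGNAA, on either strand, occurred in the 250 bases before the start of 8 of the 10 genes and of 36.9% of 27025 promoters of the same length. It was found in 6 of the 7 later granule genes and in S100a8 and S100a9, but not in Camp or Mpo. Ngp and Ltf share the match TTGGGCAA, which 0.722% of promoters hold on either strand, and that pair of promoters was singled out after the sequences had been seen. GAGGAA, the core bound by PU.1, was found for 5 genes (23.1% of all promoters), namely Mpo, Ltf, Lcn2, Cd177 and S100a8. The site of the erythroid factor GATA1, searched as AGATAA, was found for Ltf, Chi3l3 and S100a9 (10.3% of all promoters). For the 8 genes with a C/EBP-type match, 60 bases around the match nearest to the start are given 5′ to 3′ on the strand of the gene, with the matches to TTNNGNAA or its reverse complement in capitals, as a description of letters and not of binding.
Ngp, chr9:110419748-110419807, plus strand: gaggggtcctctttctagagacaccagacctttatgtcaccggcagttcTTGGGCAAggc
Ltf, chr9:111019191-111019250, plus strand: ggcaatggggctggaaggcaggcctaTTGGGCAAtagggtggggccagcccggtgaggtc
Lcn2, chr2:32387922-32387981, minus strand: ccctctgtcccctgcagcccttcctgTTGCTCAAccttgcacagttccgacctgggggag
Cd177, chr7:24760333-24760392, minus strand: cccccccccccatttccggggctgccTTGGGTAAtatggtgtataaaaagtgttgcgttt
Fcnb, chr2:28084968-28085027, minus strand: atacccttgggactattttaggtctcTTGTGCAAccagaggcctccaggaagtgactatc
Chi3l3, chr3:106167565-106167624, minus strand: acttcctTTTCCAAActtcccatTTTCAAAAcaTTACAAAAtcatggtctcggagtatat
S100a8, chr3:90668928-90668987, plus strand: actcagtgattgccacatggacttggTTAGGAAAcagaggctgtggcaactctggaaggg
S100a9, chr3:90695818-90695877, minus strand: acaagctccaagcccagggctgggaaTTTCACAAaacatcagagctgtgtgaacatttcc
The match nearest to the start lies 11 bases before it in Ngp, 75 in Ltf, 55 in Cd177 and 27 in Chi3l3, and 117 to 216 bases before it in the other 4 genes. In the same annotation Camp, Ngp and Ltf lie on chromosome 9, with 8 protein-coding genes between Camp and Ngp and 20 between Ngp and Ltf, and S100a8 and S100a9 are direct neighbours on chromosome 3.

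Intensities are linear, in arbitrary units, and were deposited without scaling between arrays. The 75th percentile of positive values was 205 and 246 for the WT pair (replicates 1 and 2, the order kept throughout) and 266 and 263 for the Stk40 KO pair, so that WT was dimmer, and ratios are given both as deposited and after every array had been brought to the same 75th percentile. The noise level was set at 143, the size that 95% of the negative values do not exceed, and 24.1% to 28.5% of probe sets were above it per array. Stk40, by its 1 named probe set, had 59.9 and 52.2 in WT and -98.9 and -111 in Stk40 KO, all under that level. Across all 12335 probe sets bright enough to be tested, limma called 149 higher (1.21%) and 83 lower (0.673%) in Stk40 KO at an adjusted p of 0.05 with equal 75th percentiles, and 284 higher (2.25% of 12600) and 11 lower (0.0873%) as deposited. The median log2 difference of the tested probe sets, Stk40 KO minus WT, was -0.04 in the first case and 0.18 in the second. Genes outside the table of 2-fold changes have no name here, so markers of fetal liver such as globins and albumin were not checked.

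Mpo, which encodes the myeloperoxidase of primary granules, was bright in both genotypes and had the smallest ratio of the genes above the noise level. It measured 1551 and 1919 in WT and 2220 and 2535 in Stk40 KO. The genotypes did not overlap, but as deposited the gap between the higher WT and the lower Stk40 KO array was smaller than that between the WT arrays. With equal 75th percentiles the values were 1842 and 1900 in WT and 2035 and 2351 in Stk40 KO, and that gap was the larger. The means as deposited were 1735 ± 260 (SD, n = 2 arrays) and 2377 ± 223, a ratio of 1.37, or 1.17 with equal 75th percentiles. In the whole liver, a larger share of neutrophils, more RNA per neutrophil and RNA of other cells cannot be told apart for any gene. By flow cytometry at E14.5, the study reported higher frequencies of granulocytes and of monocytes in Stk40 KO livers and no clear difference in their absolute numbers. The controls there were WT and heterozygous embryos grouped together, and the part of these frequencies in the ratios was not tested.

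The genes of the later granules had larger ratios, as their choice from the table of 2-fold changes largely fixed. Camp encodes the mouse cathelicidin, whose peptide kills bacteria, and Ngp encodes a granule protein related to it. Camp had 567 and 645 in WT and 1169 and 1621 in Stk40 KO. For Ngp the values were 731 and 696 against 1547 and 2300. In both genes the lower Stk40 KO array lay well above the higher WT array, and Stk40 KO replicate 2 was the highest of the 4. The ratio of the means was 2.30 for Camp (1395 ± 319 against 606 ± 55.1) and 2.70 for Ngp (1924 ± 532 against 714 ± 24.7), or 1.96 and 2.28 with equal 75th percentiles.
Ltf encodes lactoferrin, which withholds iron from microbes, and Lcn2 encodes lipocalin 2, which binds the siderophores that bacteria use to take up iron. Ltf had 183 and 181 in WT, not far above the noise level, and 410 and 650 in Stk40 KO. Lcn2 had 230 and 242 in WT and 1011 and 1249 in Stk40 KO. As deposited, the WT arrays were nearly equal in both genes, and no Stk40 KO value came near them. With equal 75th percentiles the WT arrays lay further apart, at 218 and 179 for Ltf (SD 27.2) and 274 and 240 for Lcn2 (SD 24.1). The ratio was 2.91 for Ltf (530 ± 170 against 182 ± 1.67) and 4.79 for Lcn2 (1130 ± 168 against 236 ± 8.16), or 2.46 and 4.06 with equal 75th percentiles. Lcn2 is also a gene of the acute phase response and can be made by liver cells.

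S100a8 and S100a9, whose products form the calcium- and zinc-binding heterodimer calprotectin of the neutrophil cytosol, lay between Mpo and the later granule genes. S100a8 had 3259 and 3796 in WT and 5524 and 6866 in Stk40 KO. S100a9 had 2288 and 2403 against 4086 and 5105. The genotypes did not overlap in either gene. The ratio was 1.76 for S100a8 (6195 ± 949 against 3527 ± 380) and 1.96 for S100a9 (4596 ± 721 against 2346 ± 81.5), and 1.50 and 1.66 with equal 75th percentiles. The probe set of S100a8 is of the type that may also read related transcripts.

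The remaining 3 genes were dim. Fcnb, which encodes ficolin B, a lectin that recognizes microbial sugars, had 53.4 and 76.2 in WT and 130 and 161 in Stk40 KO. Only Stk40 KO replicate 2 exceeded the noise level, so that its ratio is at least 1.02 as deposited. With equal 75th percentiles the mean of Stk40 KO (134) was under that level, and no bound can be given. Cd177, a surface glycoprotein of neutrophils stored in specific granules, had 5.91 and 7.36 against 15.1 and 53.5, and Chi3l3, a chitinase-like protein of neutrophils and macrophages, had 9.73 and 5.27 against 9.09 and 33.6. Stk40 KO replicate 2 was the highest array for both, the values of Chi3l3 overlapped between the genotypes, and no fold is given for either, as all their values lie under the noise level.

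**Figure D1:**
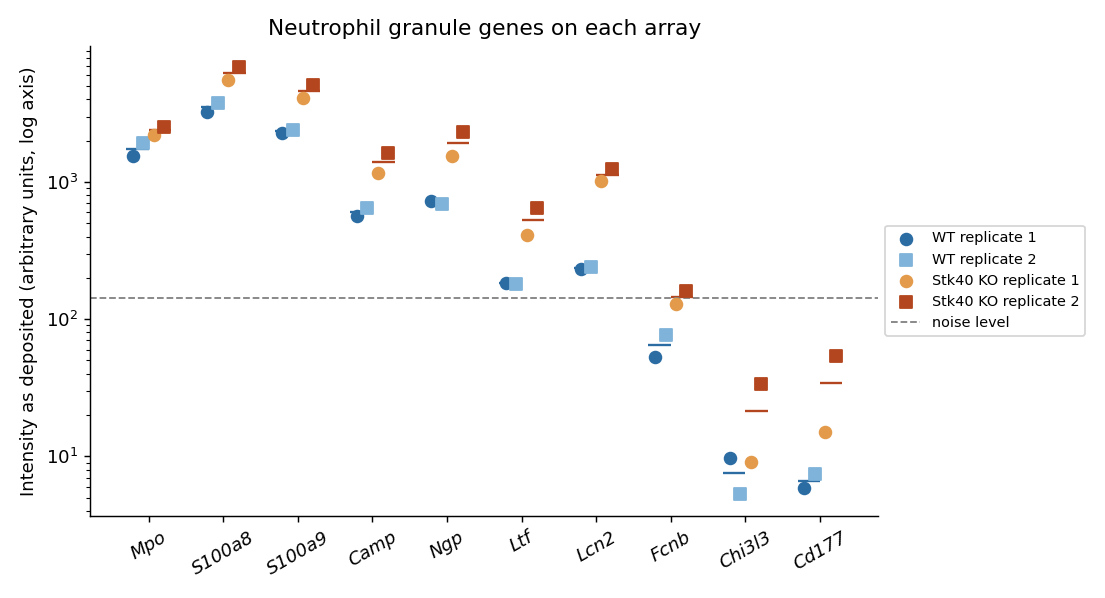
Intensity as deposited (log axis, arbitrary units) of the 10 genes on each of the 4 arrays, with short bars for the mean of each genotype and a dashed line at the noise level of 143. The genotypes do not overlap except in Chi3l3. Such a separation is found in 43.4% of the 10721 probe sets above the noise level on every array as deposited. Chi3l3 and Cd177 lie under the line on all arrays, and Fcnb on all but Stk40 KO replicate 2.

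Of the 10 genes, 10 had the higher mean in Stk40 KO with either scaling, as had 91.9% of the 10721 probe sets that cleared the noise level on every array as deposited and 38.6% of 11318 with equal 75th percentiles. Both Stk40 KO arrays were above both WT arrays in 9 of the 10 genes, among them the dim Cd177 and Fcnb, and in 7 of the 7 genes that cleared the noise level on every array. Such a separation was found in 43.4% of these bright probe sets as deposited and in 15.2% with equal 75th percentiles. At least 2-fold higher, with both means above the noise level, were 4 genes as deposited (0.252% of the bright probe sets) and 3 with equal 75th percentiles (0.15%), Camp having dropped to 1.96. By the fold rule in the study's methods, which also counts dim probe sets, 3.79% of 32791 probe sets were up as deposited and 2.48% with equal 75th percentiles. These shares describe the arrays and do not test the genes, since the table of 2-fold changes chose 7 of them. Among the 10 genes, Camp at 2.30 was the bright one just inside its threshold, and S100a9 at 1.96 lay just outside.

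In rising order the ratios as deposited were those of Mpo, S100a8, S100a9, Camp, Ngp, Ltf and Lcn2. The ratios that single pairs of arrays give ran from 1.16 to 1.63 for Mpo, 1.46 to 2.11 for S100a8, 1.70 to 2.23 for S100a9, 1.81 to 2.86 for Camp, 2.12 to 3.30 for Ngp, 2.23 to 3.59 for Ltf and 4.18 to 5.42 for Lcn2. By these ranges each gene up to Ltf overlapped with the next in this order, whereas Lcn2 stood clear of all others. The ranges include the brightness of the arrays, which is shared by all genes of an array. The ranges of Mpo and of each of the 4 later granule genes were separate, as deposited and with equal 75th percentiles, where Mpo ran from 1.07 to 1.28, Camp from 1.59 to 2.35 and Lcn2 from 3.39 to 4.84. Among bright probe sets ordered by this ratio, Lcn2 was the first of 10721, Ltf the 9th, Ngp the 13th, Camp the 18th, S100a9 the 31st, S100a8 the 62nd and Mpo the 572nd, and the median over these probe sets was 1.13 (0.973 with equal 75th percentiles).

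**Figure D2:**
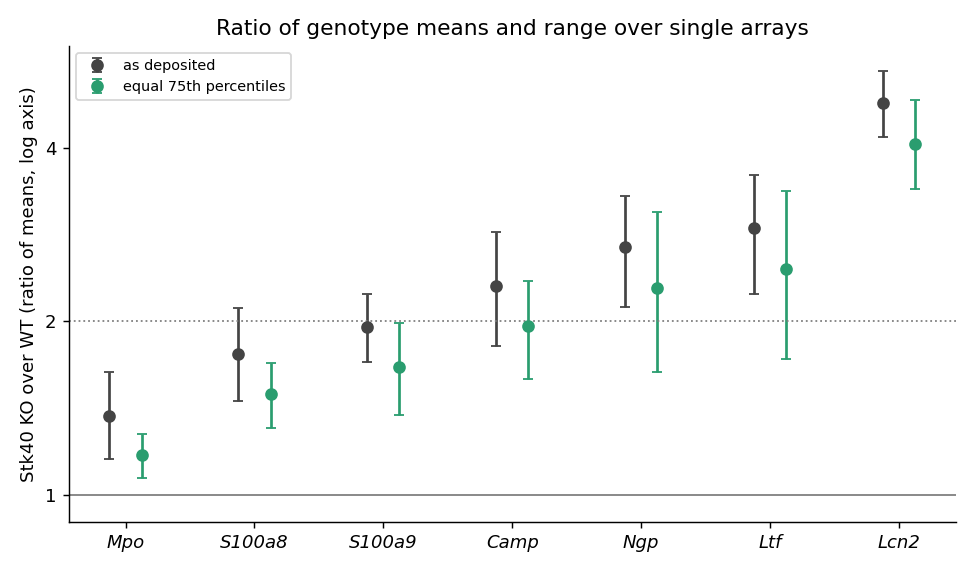
Ratio of the mean intensity in Stk40 KO over WT (log axis) for the 7 genes above the noise level, as deposited and with equal 75th percentiles, with bars from the lowest to the highest ratio of any Stk40 KO array over any WT array. The ratio rises from 1.37 for Mpo to 4.79 for Lcn2 as deposited, and Lcn2 stands apart from the rest.

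A comparison of primary with later granule genes that does not depend on the scaling was made by dividing each gene by Mpo on the same array and setting the mean of the WT arrays to 1. Relative to Mpo, Camp was at 1.50 and 1.82 in Stk40 KO against 1.04 and 0.958 in WT. Ngp was at 1.67 and 2.18 against 1.13 and 0.870. Ltf was at 1.74 and 2.41 against 1.11 and 0.888, and Lcn2 at 3.32 and 3.59 against 1.08 and 0.918. Both Stk40 KO arrays exceeded both WT arrays in every one of these genes, a separation whose share over all probe sets was not computed. This order was largely fixed by the choice of the genes, since Camp, Ngp, Ltf and Lcn2 were taken because they are listed as changed by 2-fold or more and Mpo, taken by its ID, is not, so it gives no support to a difference between granule types. S100a8 and S100a9 were closer to Mpo, with 1.22 and 1.33 against 1.03 and 0.970 for S100a8 and 1.35 and 1.48 against 1.08 and 0.918 for S100a9. Mpo is, with Lyz2, the only primary granule gene whose probe set is known here. Lyz2, which is found in specific granules and macrophages too and was also named through the 2-fold table, had a ratio of 2.15 (1.83 with equal 75th percentiles), close to the 2.30 (1.96) of Camp and above the 1.37 (1.17) of Mpo. Its listing fixed a ratio of at least 2 as deposited, and the other primary granule genes have no name here, so primary and later granule genes could not be compared as classes. With 2 arrays against 2 an exact two-sided permutation test cannot go below p = 0.333.

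**Figure D3:**
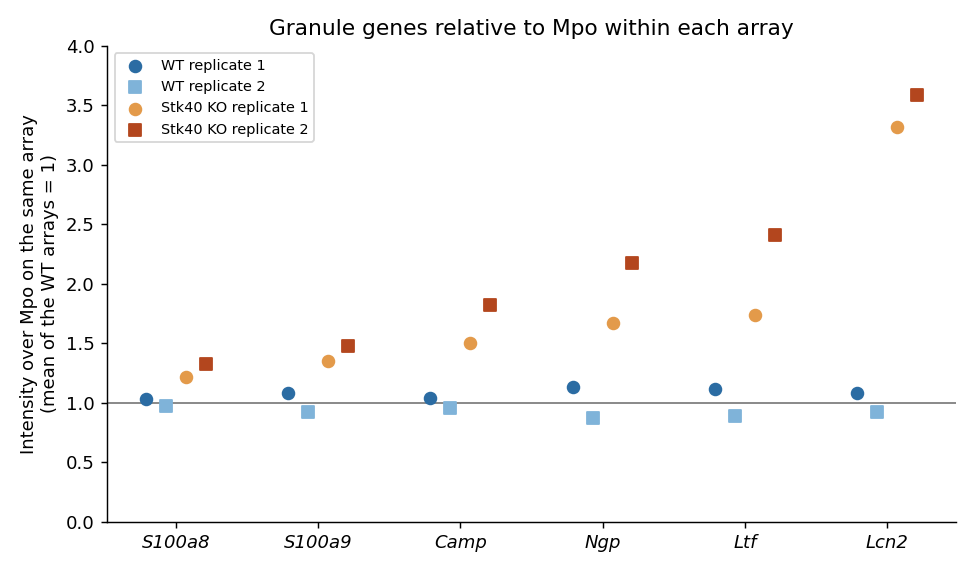
Intensity of 6 genes divided by that of Mpo on the same array, with the mean of the WT arrays set to 1 for each gene (linear axis from 0). On the Stk40 KO arrays the values range from 1.22 for S100a8 to 3.59 for Lcn2, and in every gene they exceed those of both WT arrays. The share of all probe sets with such a separation after division by Mpo was not computed.

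Most of the genes also differed together between the Stk40 KO arrays, which is not the contrast that chose them. A high Stk40 KO array or a low WT array also raises the ratio between genotypes, so the shares below do not test the genes. With equal 75th percentiles, Stk40 KO replicate 2 over replicate 1 was 1.61 for Ltf, 1.50 for Ngp and 1.40 for Camp, against a median of 1.04 over bright probe sets, of which 0.0707%, 0.177% and 0.433% had a higher ratio. It was 1.26 for S100a9 and S100a8 and 1.25 for Lcn2, still above the 95th percentile of 1.21, and 1.16 for Mpo. Lcn2, with the largest ratio between genotypes, differed less between the Stk40 KO arrays than Camp, Ngp and Ltf did.
Between the WT arrays Ngp, Ltf, Lcn2 and S100a9 leaned the other way, below the 5th percentile, whereas Camp, S100a8 and Mpo lay above it. Replicate 2 over replicate 1 was 0.794 for Ngp, 0.823 for Ltf, 0.876 for Lcn2 and S100a9 and 0.948 for Camp, against a median of 1.04 and a 5th percentile of 0.884 over bright probe sets, while S100a8 had 0.971 and Mpo 1.03. As deposited, Ngp and Ltf were nearly equal on the WT arrays although the second array was brighter by a median factor of 1.24.

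**Figure D4:**
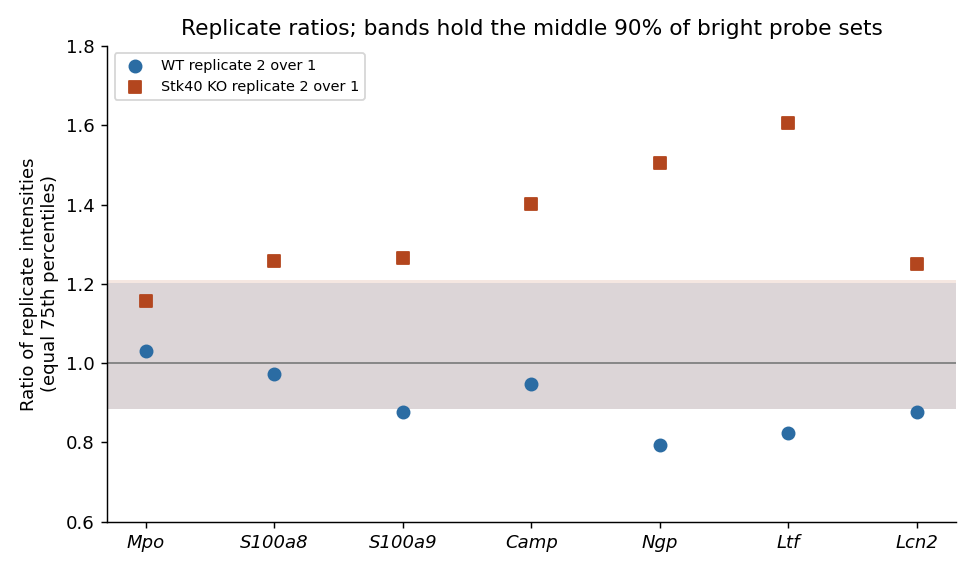
Ratio of replicate 2 over replicate 1 within WT and within Stk40 KO for the 7 genes above the noise level, with equal 75th percentiles. The shaded bands, which nearly coincide, hold the middle 90% of bright probe sets. Ltf reaches 1.61 between the Stk40 KO arrays, whereas Ngp is at 0.794 between the WT arrays.

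Other genes of neutrophils were looked up in 5 lists of granule, cytosolic, regulatory and receptor genes. Of the 91 genes of these lists that are not among the 10, the table of 2-fold changes names 19, and all 19 were higher in Stk40 KO, as were 70.5% of the 1341 genes of that table outside control probe sets. By list, the table names 13 of 19 specific granule genes (7 of them among the 10), 1 of 14 primary granule genes, 5 of 20 gelatinase granule, secretory and cytosolic genes, 3 of 19 regulators and 4 of 29 surface receptors, where it lists 3.25% of all probe sets on the array. That share counts probe sets, whereas the lists count genes, and a gene with several probe sets is named if any of them is listed. The share by gene is not known here. The 7 granule genes among the 10 were taken from that table, so their part of the first count was fixed. The 19 share the choice by fold with the genes above, and the rest have no name here, so that the count is no test of the lists.
The brightest was Lyz2, the lysozyme of primary and specific granules and of macrophages, with 781 and 930 in WT and 1818 and 1854 in Stk40 KO, a ratio of 2.15. Unlike Camp, Ngp and Ltf it was nearly equal on both Stk40 KO arrays (1.03 with equal 75th percentiles). Stfa2l1 and Stfa3, stefins that inhibit cysteine proteases, had 424 and 519 against 1043 and 1569 and 422 and 429 against 869 and 1184, with ratios of 2.77 and 2.41. Anxa1, the annexin of neutrophil gelatinase granules, had 405 and 470 against 806 and 1079, a ratio of 2.16.
Olfm4, a glycoprotein of the specific granules of a subset of neutrophils, had 267 and 339 in WT and 649 and 1066 in Stk40 KO, a ratio of 2.83. Hp, haptoglobin, which is made by hepatocytes as well as stored in specific granules, had 208 and 280 against 594 and 879, a ratio of 3.02. Wfdc21 (1100001G20Rik in the table), a small secreted protein, was at least 2.28-fold higher, with 124 and 136 against 263 and 387. Over the 6 of these genes with both means above the noise level, the median ratio was 2.59 as deposited and 2.21 with equal 75th percentiles, and Stk40 KO replicate 2 exceeded replicate 1 by a median factor of 1.44, from 1.03 for Lyz2 to 1.66 for Olfm4.
The other 12 genes were under the noise level on all arrays. Mmp8, the neutrophil collagenase, had 34.4 and 41.9 in WT against 82.4 and 112 in Stk40 KO. Gfi1, a transcriptional repressor required for neutrophil formation, had 28.5 and 49.5 against 72.8 and 107, and Fpr1, the receptor for formylated bacterial peptides, 16.1 and 15.1 against 37.1 and 51.8. These 3 were picked as examples after their values had been seen, and no fold is given for any of the 12.

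**Figure D5:**
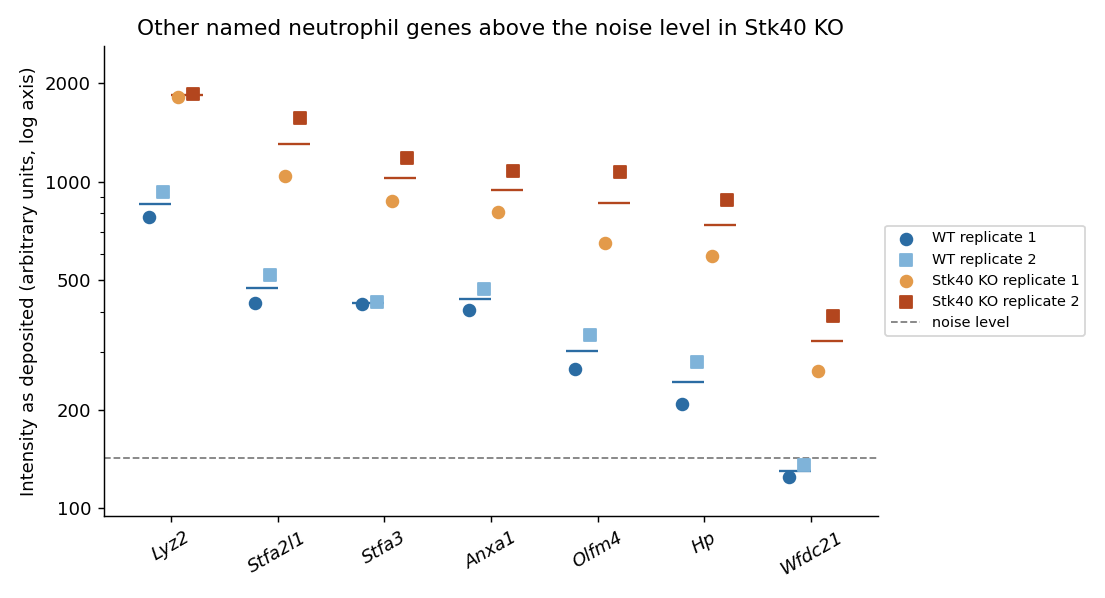
Intensity as deposited (log axis, arbitrary units) of the 7 other neutrophil genes with a mean above the noise level in Stk40 KO, on each array, with short bars for the genotype means and a dashed line at 143. All 7 genes separate the genotypes, as do 43.4% of the 10721 probe sets above the noise level on every array as deposited. The 7 were named through the table of 2-fold changes, so this is no test of them. Lyz2 alone has nearly equal values on both Stk40 KO arrays.

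Markers of neutrophils and of other cells could be followed only where the table names them. Of 10 neutrophil markers it names only Mmp8, under the noise level on all arrays, and the rest apart from S100a8 are not known here. Of 12 macrophage markers it names Marco, a scavenger receptor, which had 19.9 and 31.6 in WT and 85.5 and 66.1 in Stk40 KO, under the noise level throughout. Of 15 acute phase genes it names 8, all listed as higher in Stk40 KO, among them Lcn2 and Hp. Only 3 of the 8 had both means above the noise level, and 3 (Saa1, Saa2 and Orm1) were under it on all arrays, with values from -6.64 to 16.5. Cp, which encodes ceruloplasmin, was at 293 and 298 against 1154 and 1425 by the brightest of its 5 named probe sets, a ratio of 4.36 (3.70 with equal 75th percentiles) close to that of Lcn2. Of the 12 erythroid, 10 hepatic, 6 monocyte, 5 megakaryocyte, 5 B-lineage and 10 eosinophil, basophil and mast cell markers it names 0, so the levels of these markers are not known here, and the part of these cells, and of an acute phase response, in the difference was not tested.
The profile over the 4 arrays most like the mean of Camp, Ngp, Ltf and Lcn2, by the root mean square difference of centred log2 intensities with equal 75th percentiles, belonged among 62 other named genes to Igfbp1 (0.0505), Uox (0.106), Cp (0.107), Stfa2l1 (0.117) and Hp (0.138). Igfbp1, which the liver secretes to bind insulin-like growth factors, had 1801 and 1910 in WT and 4364 and 6211 on the Stk40 KO arrays, so that its values, too, were higher on the second Stk40 KO array. Uox had 93.0 and 103 in WT and 341 and 424 in Stk40 KO. Cp is read here by another probe set than above, with 57.0 and 61.1 against 294 and 437. Values under the noise level were raised to it, among them the WT values of Uox and of this probe set of Cp, so their likeness depends on that level. The likeness is a description over 4 arrays and over genes already chosen for a 2-fold change.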

How the data were processed

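Total RNA of pooled fetal livers had been hybridized to Affymetrix mouse arrays. The authors deposited linear intensities, with MAS5 named in the submitters' processing notes (its version is not given in the sources) and no scaling between arrays. Of the values, 99.9% are multiples of 1/11 within 0.001, and 21.0% to 23.2% of those outside control probe sets are negative per array. The name MAS5 is repeated from the notes and is not taken here as a description of these values. A second deposited table, listing changes of 2-fold or more for 1467 probe sets, gave the gene names (1 symbol for 1418, older symbols updated through RefSeq, 1197 of 1345 found). Its columns of folds were not used. S100a8, S100a9 and Mpo are named by the ID of their probe sets, not by that table. The members, lists and tests were chosen with earlier results of these data known.

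Intensities were scaled to the geometric mean of the arrays' 75th percentiles, raised to the noise level, and log2 values were, where 2 or more arrays had exceeded that level, tested with limma 3.58.1 (trend, Benjamini-Hochberg adjustment) in R 4.3.3. The test of limma was also run on simulated arrays of equal brightness, with the same independent noise for every probe set. The real arrays differ in brightness, so that run does not show that the counts given here are right. The precision is limited by the number of arrays, 2 per genotype. The labels call the replicates biological, and the arrays of 1 genotype were not identical. The plan was to name the 10 genes, the tested genes of each neutrophil list past the threshold and the 6 brightest ones. It also covered up to 4 markers of each other cell type, brightest first, and the 5 nearest profiles. The lists were instead followed through the table of 2-fold changes. Dim genes outside the plan are named too, among them Gfi1, Fpr1, Saa1, Saa2 and Orm1. The planned test of neutrophil genes outside the table needs names for all probe sets and was not made. Alternatives covered scaling, floor, filter, variance prior, replicate block and leaving out each array.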

Additional observations from a re-analysis of the deposited data

How the results depend on the processing

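The ratios of Mpo, S100a8, Camp, Ngp and Ltf and the median ratio of the 4 bright later granule genes (2.80) moved by less than the spread between arrays under every alternative, and no direction changed. That spread was the SD of the 4 ratios that single pairs of these same arrays give. Leaving out 1 array could therefore hardly move a ratio beyond it. Raising dim values to the noise level could not change these bright genes, so neither alternative shows that the ratios are stable. The ratio of S100a9 fell from 1.96 to 1.66 with equal 75th percentiles, more than that spread, and that of Lcn2 from 4.79 to 4.06 (4.11 after quantile normalization). Leaving out 1 array gave 2.21 to 3.39 for the median of the later granule genes, 1.24 to 1.53 for Mpo, 1.57 to 1.95 for S100a8 and 1.74 to 2.18 for S100a9. The count of genes at least 2-fold higher, an alternative added after seeing the data, was 3 without Stk40 KO replicate 2 and 5 without WT replicate 2 or Stk40 KO replicate 1.
The limma counts over all probe sets were less stable. Against 149 higher and 83 lower, they were 284 and 11 as deposited, 238 and 163 with the floor at the median size of the negative values, 204 lower when every array had to clear the noise level, 55 lower with no trend, and 107 to 462 higher and 121 to 312 lower with 1 array left out. These last fits leave a genotype with 1 array, which is assumed to vary like the pair of the other genotype. Among them, the higher calls moved by over 1.5 times without WT replicate 2 (462) or Stk40 KO replicate 1 (279), and the lower calls without WT replicate 2 (312), Stk40 KO replicate 1 (159) or Stk40 KO replicate 2 (143). With the replicate number as a block they were 596 higher and 747 lower, and the ratio of the later granule genes over same-numbered arrays was 2.74. The numbers alone link the arrays, whose same-numbered deviations correlated at 0.244 over 12335 probe sets. The fit with no filter could not be made, because most floored values have no variance, and no setting was tried for neutrophil genes outside the table, which have no names here.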
